A study of Tupaia belangeri with 15 samples.

Results

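Heat shock proteins and chaperones keep other proteins folded. HSP90 and HSP70 are ATP-driven clamps that bind unfolded or immature clients, J proteins (the HSP40 family) hand clients to HSP70, BAG proteins and the HSP110 members release them, and small HSPs hold unfolded proteins without ATP. Separate sets work in the cytosol, in the endoplasmic reticulum (ER) and in mitochondria, and heat shock factors switch on many of their genes. Photoreceptors renew large amounts of membrane protein throughout life, so they make proteins at a high rate.

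The set described here comprised 40 such genes out of 83605 features. Members were found by gene name in the feature list. Where several features carried the name, the most abundant of the gene's own symbol and its numbered copies was taken. That copy was a numbered one for 11 members, among them HSP90AA1, HSPA8, HSP90B1 and HSPA9, and in 8 of these the plain symbol was listed at 0. Copies left out held 8294 UMIs beside the 26369 of DNAJA1, 3603 beside the 22639 of HSPD1 and 2295 beside the 11888 of STIP1. The class differences of these members rest on the copy used alone. A UMI was found for 39 members, and HSPA4L was listed at 0. At least 1000 UMIs were counted for 33 members. The other 7 were too sparse to describe: HSP90AB1 held 189 UMIs, DNAJB5 367, BAG2 183, HSPA12A 30, DNAJB14 3 and HSPA2 2. For some of these the antisense feature held more UMIs: 2353 for DNAJB5, 1880 for HSPA12A, 487 for HSP90AB1 and 269 for DNAJB14. A low count of a feature does not show that the gene was silent. The inducible HSP70 genes HSPA1A and HSPA1B had no feature. Overlapping antisense features held 26408 UMIs beside the 29835 of HSF2, 19446 beside the 50819 of HSP90B1, 14993 beside the 113951 of DNAJC6 and 10845 beside the 19366 of HSPA9. The split between the strands makes the levels of these 4 members uncertain. The same limit holds for others, such as CCT2 (3001 beside 18467), HSPE1 (2276 beside 12397) and HSPB1 (433 beside 2612).

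The data were single-nucleus RNA counts of 15 retinas of the tree shrew (Tupaia belangeri, TS), 5 each of infant, mature and senile animals. All were described as healthy, no genotype or treatment differed between them, and 1 library was made per retina. The sample labels give no sex, so sex was a term of no model. Senile TS had been bought from another institute than infant and mature TS, so stage and source cannot be told apart in any comparison with the senile stage. The libraries held 13429873 to 58734300 UMIs, with medians of 1461 to 5589 UMIs per nucleus, and 119765 of 120437 barcodes were kept. Of these barcodes 1793 occurred in more than 1 library, and pairs of libraries shared 4 to 30. Cell Ranger, the counting software, was version 7.0.1 by the file headers for Infancy 4 and 5, Mature 3 to 5 and Senile 3 to 5. It was version 6.1.2 in the 7 remaining retinas. The versions also differed in depth, with medians of 1461 to 3064 UMIs per nucleus in 6.1.2 and 2267 to 5589 in 7.0.1, so software and library batch cannot be told apart. Infancy 1 to 3 were more alike than any other pairs of a stage: a chi-square of their counts came to 8.70 to 10.3 per feature for these 3 pairs and to 25.6 to 152.6 for the others, a value that also grows with depth. Retinas of the 2 versions differed in many members. The version was therefore a term of the stage comparisons in the whole retina and within classes. It was no term of the comparison of changes between classes. Many values are given within each version.

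Nuclei were put into 9 classes by sets of marker genes that hold no member. A nucleus needed UMIs of at least 2 markers of a class and a clear lead over the other classes, which 65396 nuclei (54.6%) had. They comprised 15932 cones, 1260 rods, 20717 bipolar cells (BCs), 1384 horizontal cells (HCs), 9445 amacrine cells (ACs), 5196 retinal ganglion cells (RGCs), 9012 Müller cells, 1564 astrocytes and 886 microglia. The paper, which clustered the nuclei, reported far more ACs, and fewer glial cells in all than the Müller cells gated here. The AC gate used 4 markers. AC sums may thus hold only a part of the class, and glial sums may hold other nuclei. Of 19 further markers left out of the gate, 15 were highest in their own class, such as SAG in rods, GRM8 in ACs, SLC1A3 in Müller cells and APBB1IP in microglia. The exceptions were PRKCA in BCs, ISL2 and NEFH in RGCs and ALDH1L1 in astrocytes. The HC gate had only 2 markers with enough UMIs, and CALB1, MEGF11 and PROX1, which it did not use, were highest there. Cone transcripts were counted in all classes: the cone arrestin ARR3 stood at 5163 CPM in cones and at 82.8 to 472 elsewhere, and free RNA, doublets and misplaced nuclei cannot be told apart here. Levels below are CPM, the UMIs of a gene per 1000000 UMIs of a retina's class sum (or of the whole retina), scaled by TMM, the trimmed mean of M values. They compare classes or retinas for the same gene and not genes with each other.

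The first question was which classes carried which chaperones. Class sums were compared by edgeR's quasi-likelihood test with the retina as a block, each class against the mean of the other 8, with Benjamini-Hochberg adjustment over 17409 features. Of 297 member-by-class tests, 149 passed an adjusted p of 0.05. Most features differed between classes, and the members have to be read against that background. In cones 19 of 33 members were higher and 6 lower, where 41.8% of all features were higher and 38.3% lower. In BCs 17 were higher and 6 lower (background 35.9% and 29.1%), and in RGCs 10 and 6 (35.6% and 28.4%). In ACs 7 were higher and 10 lower (35% and 27.4%), and in Müller cells 10 and 7 (30.9% and 25.9%). Rods had 4 higher and 7 lower (17% and 27%), and HCs 4 and 7 (20.2% and 19.2%). Astrocytes had 5 higher and 11 lower (20% and 22.8%), and microglia 1 and 12 (14.3% and 25.4%).

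**Figure D1:**
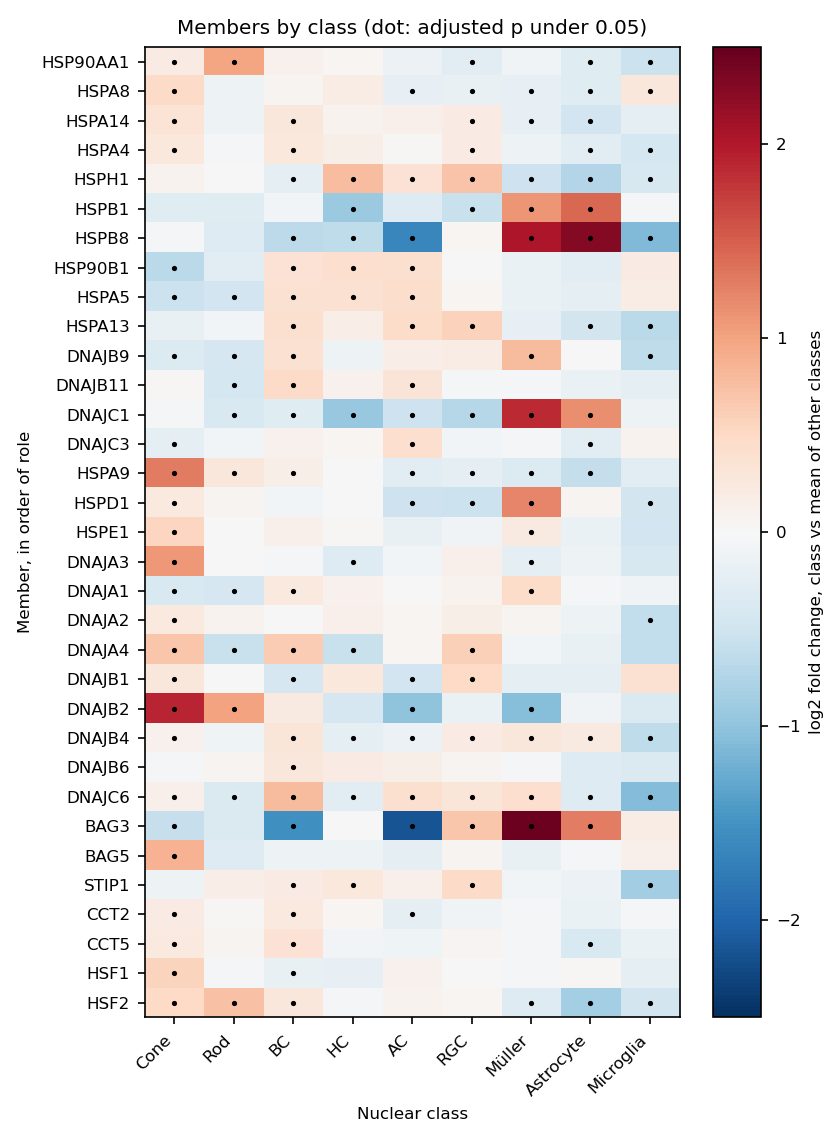
Difference of each of the 33 tested members between a class and the mean of the other 8 classes, as a log2 fold change (colour; columns are classes, rows are members in order of role, dots mark an adjusted p under 0.05). The deepest colours are BAG3, HSPB8 and DNAJC1 in Müller cells, HSPB8 in astrocytes and DNAJB2 in cones on the high side, and BAG3 and HSPB8 in ACs on the low side.

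HSPB8, HSPB1 and BAG3 had their highest mean levels in Müller cells and astrocytes. HSPB8, a small HSP that works with BAG3 and steers misfolded proteins to autophagy, stood at 42.3 to 130.0 CPM in astrocytes (median 72.2, 15 retinas) and at 44.9 to 96.5 in Müller cells (median 72.5). In ACs the same gene ranged from 3.64 to 14. Both glial classes were thus above the ACs in every retina. The log2 fold change against the other classes was 2.30 (SE 0.13, adjusted p = 1.52e-33 in edgeR) in astrocytes, 2.02 (SE 0.10, adjusted p = 1.16e-41) in Müller cells and −1.63 (SE 0.14, adjusted p = 6.92e-21) in ACs. HSPB8 was also lower in microglia (−1.09, SE 0.30), BCs (−0.66, SE 0.12) and HCs (−0.64, SE 0.19). In cones, RGCs and rods its difference (−0.03, 0.05 and −0.31) did not pass the test.

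BAG3, the nucleotide exchange factor of HSP70 that partners HSPB8, had a wider range. It stood at 15.5 to 48.5 CPM in Müller cells (median 27.9), at 3.98 to 29.3 in astrocytes (median 12.2) and at 0.681 to 4.33 in ACs (median 1.64). Müller cells held the highest level of any class in 14 of 15 retinas. In edgeR the log2 fold change was 2.45 (SE 0.13, adjusted p = 5.46e-37 in edgeR) in Müller cells, 1.29 (SE 0.25) in astrocytes and 0.69 (SE 0.17) in RGCs. It was −2.16 (SE 0.22, adjusted p = 1.90e-16 in edgeR) in ACs, −1.53 (SE 0.19) in BCs and −0.57 (SE 0.16) in cones. Astrocytes lay above the mean of the other classes for BAG3 in 10 of 15 retinas, 4 of 7 of version 6.1.2 and 6 of 8 of version 7.0.1. Among the neurons, RGCs lay above the mean of the other classes in 7 of 7 retinas of version 6.1.2 but in 4 of 8 of version 7.0.1. HSPB1, a small HSP that guards the actin cytoskeleton, was higher in astrocytes (1.43, SE 0.27) and Müller cells (1.10, SE 0.17). Astrocytes, at 0 to 26.3 CPM, lay above the mean of the other classes in 7 of 7 retinas of version 6.1.2 and 6 of 8 of version 7.0.1. HSPB1 was sparse, with only 27 to 39 UMIs in a whole retina of version 6.1.2. Its lower values in HCs (−0.93, SE 0.33) and RGCs (−0.55, SE 0.23), at mean levels of only 2.80 and 3.30 CPM, depended on the setting. The HC call was lost under 4 of 20 alternatives (adjusted p = 0.0559 to 0.176 in edgeR), among them leaving out Mature 4 or Senile 5. The RGC call was lost under 8 of 21 (adjusted p = 0.0555 to 0.0763 in edgeR), among them leaving out Infancy 1, 2 or 4, Mature 3 or 5 or Senile 2. The RGC value of HSPB1 turned to 0.15 (adjusted p = 0.512 in edgeR) when nuclei with markers of several classes were kept.

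Other members that were high in Müller cells belonged to the ER, the mitochondria and the cytosol. DNAJC1, a J protein of the ER membrane, ran from 593 to 1029 CPM in Müller cells (median 737) and was highest there in 15 of 15 retinas. Astrocytes followed with 332 to 678, and no retina of the other 7 classes exceeded 329. The log2 fold change of DNAJC1 was 1.87 (SE 0.04, adjusted p = 8.19e-75 in edgeR) in Müller cells. It was −0.96 (SE 0.06) in HCs and −0.71 (SE 0.05) in RGCs, the lowest classes. HSPD1, the mitochondrial chaperonin HSP60, stood at 72.7 to 172 CPM in Müller cells and at 29.1 to 48.0 in RGCs, also without overlap. Its log2 fold change in Müller cells was 1.21 (SE 0.06), whereas HSPE1, the lid of the same chaperonin, differed there by 0.23 (SE 0.10, adjusted p = 0.0481 in edgeR). DNAJB9, an ER cochaperone of HSPA5, was higher in Müller cells by 0.80 (SE 0.08). DNAJB2 (−1.07, SE 0.16) and HSPH1 (−0.52, SE 0.07) were the members furthest below the other classes in Müller cells.

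**Figure D2:**
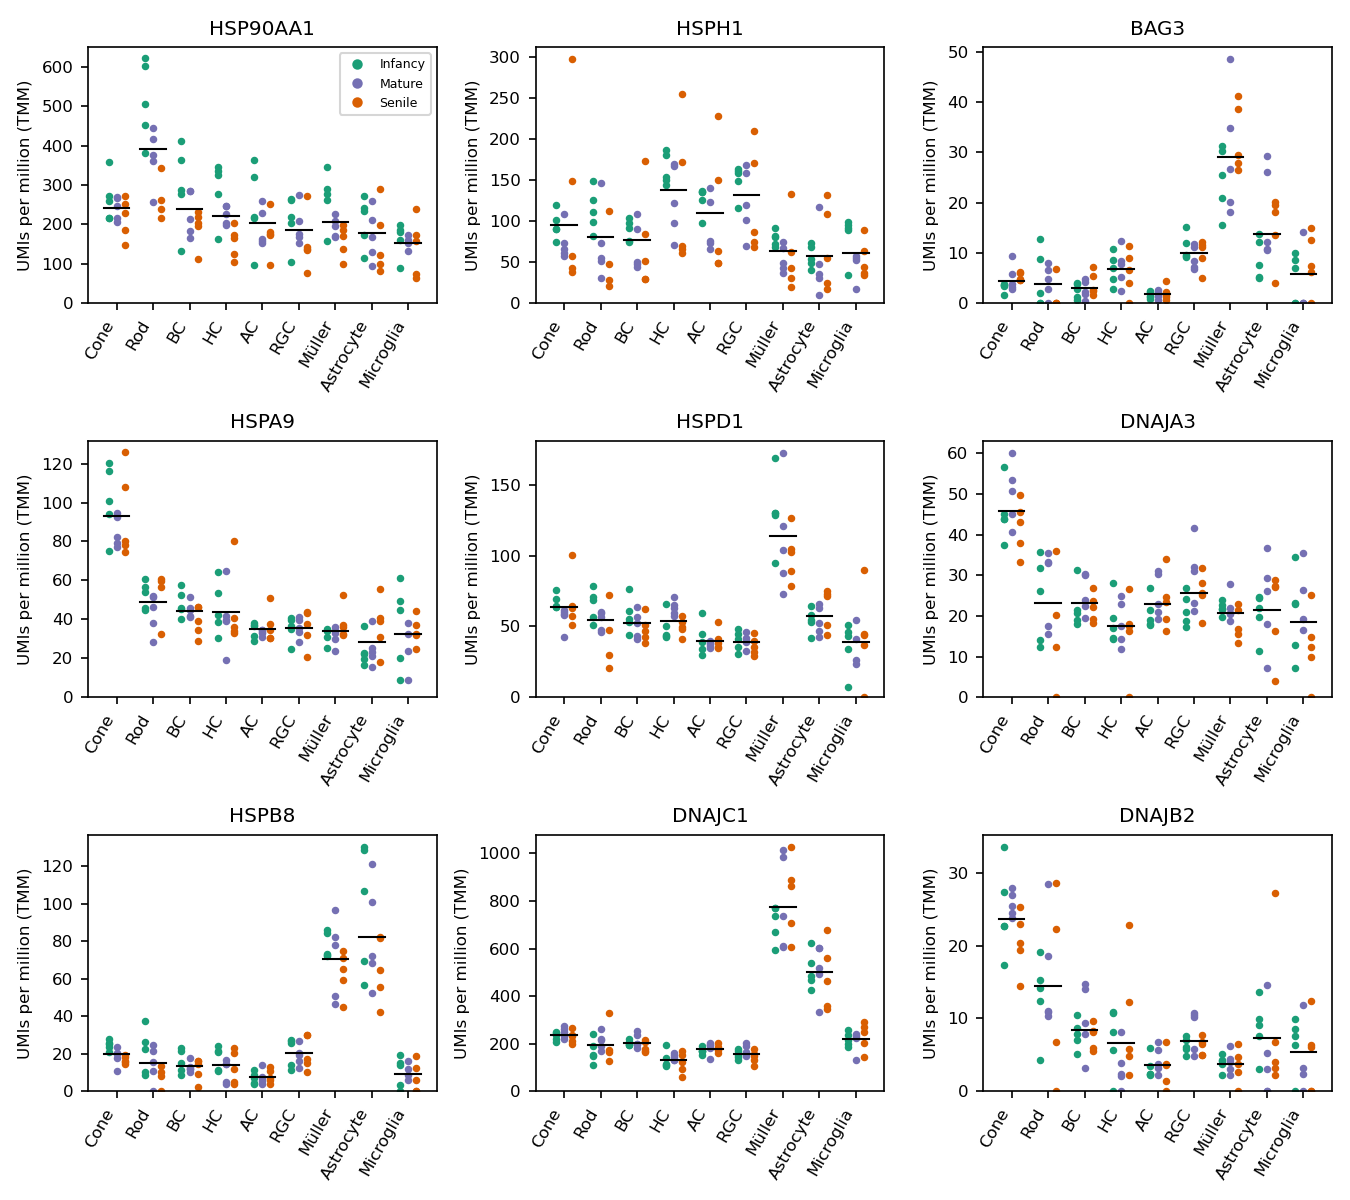
Levels of 9 members by class (CPM of the class sum, TMM-scaled; linear axes from 0). Each point is a retina, coloured by stage, and the bar is the mean of all retinas. BAG3, HSPB8, DNAJC1 and HSPD1 are high in Müller cells, HSPA9, DNAJA3 and DNAJB2 in cones, HSP90AA1 in rods, and HSPH1 in HCs and RGCs.

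All 4 tested mitochondrial members were higher in cones than in the mean of the other classes, as were 41.8% of all features. HSPD1 was nevertheless highest in Müller cells in 15 of 15 retinas, at a mean of 114 CPM against 63.7 in cones. HSPA9, the HSP70 that pulls proteins into mitochondria, stood at 74.7 to 126 CPM in cones (median 92.5), and cones were the highest class in 15 of 15 retinas. Rods were next at a mean of 49.2, and astrocytes lowest at 28.5. In edgeR the log2 fold change of HSPA9 in cones was 1.31 (SE 0.05, adjusted p = 1.81e-48 in edgeR), and the ratio of cones to the mean of the other classes ran from 1.86 to 3.08 over the retinas. DNAJA3, a mitochondrial J protein that works with HSPA9, ranged from 33.3 to 60.1 in cones and was highest there in 15 of 15 retinas, against a mean of 25.8 in RGCs, the next class. Its log2 fold change was 1.08 (SE 0.06). HSPE1 (0.54, SE 0.09) and HSPD1 (0.25, SE 0.06) differed less.

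DNAJB2, a J protein that binds ubiquitin and sorts clients for the proteasome, had the largest difference in cones. It stood at 14.5 to 33.5 CPM in cones (median 23.8) and averaged 14.5 in rods, 3.79 in Müller cells and 3.59 in ACs. The log2 fold change of DNAJB2 was 1.90 (SE 0.10, adjusted p = 9.00e-38 in edgeR) in cones and 1.01 (SE 0.22, adjusted p = 4.03e-05) in rods. BAG5 (0.86, SE 0.11), HSF1, the master factor of the heat shock response (0.57, SE 0.06), and HSPA8, the constitutive cytosolic HSP70 (0.47), were also higher in cones. HSP90B1 (GRP94, the HSP90 of the ER) and BAG3 were the members furthest below the other classes in cones, with HSP90B1 at −0.68 (SE 0.09, adjusted p = 9.84e-12 in edgeR).

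DNAJB2 lay above the mean of the other classes in rods in 11 of 14 retinas, against 15 of 15 in cones. HSP90AA1, the inducible HSP90, stood at 216 to 622 CPM in rods (median 379.6, 14 retinas) and was highest there in 13 of the 14 retinas with a rod sum, against a mean of 241 in cones and 153 in microglia. Its log2 fold change in rods was 0.98 (SE 0.08, adjusted p = 2.04e-21 in edgeR), and the rod level was above the mean of the other classes in each of these 14 retinas. HSF2, another heat shock factor with roles in development, was higher in rods (0.73, SE 0.09) and lower in astrocytes (−0.86, SE 0.11). HSPA5 (−0.49, SE 0.15) and DNAJA4 (−0.55, SE 0.23, adjusted p = 0.0376 in edgeR) were lower in rods. The DNAJA4 call in rods was lost under 8 alternatives and kept under 13. Among the losses, without any of Infancy 2 or 3, Mature 3, 4 or 5 or Senile 5, its adjusted p was 0.0652 to 0.125.

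HCs and RGCs carried the most HSPH1. HSPH1 (HSP110), an exchange factor of HSP70 that also helps to dissolve aggregates, stood at 61.7 to 255 CPM in HCs (median 150.4) and at 68.2 to 209.7 in RGCs (median 149). Astrocytes ranged from 10.4 to 131 (median 49.4), so the ranges over retinas overlapped. Within a retina HCs and RGCs were each above the mean of the other classes in 15 of 15. In edgeR the log2 fold change of HSPH1 was 0.77 (SE 0.08, adjusted p = 1.20e-16 in edgeR) in HCs, 0.71 (SE 0.06) in RGCs and −0.73 (SE 0.10) in astrocytes. DNAJC6 (auxilin), a J protein that strips clathrin from synaptic vesicles together with HSPA8, was highest in BCs in 15 of 15 retinas, at 315 to 412 CPM. Microglia held 48.0 to 172 of DNAJC6. Its log2 fold change was 0.79 (SE 0.05, adjusted p = 6.43e-30 in edgeR) in BCs and −1.09 (SE 0.08) in microglia. DNAJA4 was higher in cones (0.69, SE 0.09), BCs (0.63, SE 0.10) and RGCs (0.60, SE 0.11), though in RGCs it lay above the mean of the other classes in 5 of 8 retinas of version 7.0.1.

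Of the 7 tested ER members, 5 were higher in BCs and 5 in ACs, and none was higher in cones or rods, where 4 each were lower. Over all features 35.9% were higher in BCs and 35% in ACs, and 38.3% were lower in cones and 27% in rods. HSPA5 (BiP, the HSP70 of the ER) stood at 26.3 to 265 CPM in ACs (median 84.4) and at 29.9 to 92.3 in cones. Its log2 fold change was 0.43 (SE 0.09) in ACs and 0.39 (SE 0.11) in HCs. HSPA13 was higher in RGCs (0.57, SE 0.10) and ACs (0.46, SE 0.10), DNAJC3 in ACs (0.43, SE 0.06), DNAJB11 in BCs (0.47, SE 0.08) and HSP90B1 in HCs (0.42, SE 0.10). Several of these were less regular among the retinas of version 7.0.1, a difference that was not tested. HSP90B1 was below the mean of the other classes in cones in 7 of 7 retinas of version 6.1.2 (median ratio 0.359) but in 5 of 8 of version 7.0.1 (median ratio 0.95). HSPA5 and HSPA13 were above it in ACs in 7 of 7 retinas of version 6.1.2 and in 5 of 8 of version 7.0.1. DNAJC3 in ACs was above it in 15 of 15.

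Microglia had few members above the other classes. HSPA8 alone passed (0.28, SE 0.10, adjusted p = 0.0169 in edgeR), with opposite signs in the versions. HSPA8 in microglia was below the mean of the other classes in 7 of 7 retinas of version 6.1.2 and above it in 7 of 7 of version 7.0.1. The HSPA8 call was lost under 4 alternatives and kept under 17. Among the losses, its adjusted p was 0.196 without Mature 4, 0.0636 without Infancy 4 and 0.0623 without Mature 3. Microglia sums held at most 83 nuclei, rod sums at most 155, astrocyte sums at most 172 and HC sums at most 222. Some of these sums had no UMI of HSPB1, DNAJB2 or DNAJB1.

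STIP1, which bridges HSP70 and HSP90, was higher in RGCs (0.48), HCs (0.26) and BCs (0.20) and lower in microglia (−0.87). CCT2 and CCT5, subunits of the cytosolic chaperonin TRiC that folds actin and tubulin, were both higher in cones (0.21 and 0.25) and BCs (0.25 and 0.36). HSPA4 and HSPA14 were higher in cones, BCs and RGCs, each by 0.20 to 0.34. DNAJA1, a general partner of HSPA8, was higher in Müller cells (0.45) and BCs (0.25) and lower in rods (−0.42) and cones (−0.38). DNAJB1, the main J protein of the heat shock response, was higher in RGCs (0.49) and cones (0.28) and lower in ACs (−0.49) and BCs (−0.42). In microglia DNAJB4 (−0.63) and DNAJA2 (−0.61) were lower, and DNAJB6 passed the test in BCs only (0.28).

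Beyond the members, 48 further chaperone and stress genes had at least 1000 UMIs. In cones 24 of them were higher and 11 lower, in BCs 22 and 6, in RGCs 15 and 11, and in ACs 13 and 12. These counts stand against the shares of all features given above for each class, such as 41.8% higher and 38.3% lower in cones. In Müller cells 9 were higher and 16 lower, in HCs 7 and 6, in microglia 6 and 7, in rods 5 and 14 and in astrocytes 3 and 15. FKBP5, an HSP90 cochaperone induced by glucocorticoids, was higher in microglia (3.95, SE 0.20), astrocytes (1.48, SE 0.25), Müller cells (1.41, SE 0.16) and HCs (1.29, SE 0.22). It was lower in ACs (−2.56), BCs (−2.27), RGCs (−1.92) and cones (−1.68). ERN1 (IRE1), a sensor of unfolded protein in the ER, was higher in cones (2.82, SE 0.09) and rods (2.00, SE 0.18) and lower in ACs, BCs, RGCs, Müller cells and astrocytes. CCT4, a TRiC subunit, stood at 477 to 1249 CPM in cones and at 196 to 754 in rods, against 71.6 to 146 in ACs (log2 fold change 2.63 in cones and 1.56 in rods). SIL1, an exchange factor of HSPA5, was higher in rods (1.56), BAG4 (1.77) and CLPX (1.00) in BCs and EDEM1 (1.40) in microglia.

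The second question was whether the members changed from infancy to the mature and senile stages. The whole retina was compared first, by edgeR with stage and version in the model and adjustment over 30044 features, in which 36 members were tested. From infancy to the senile stage 2 members passed and both were lower, DNAJC3 and DNAJB11 (background 1.61% of features). From infancy to the mature stage DNAJC3 alone passed (background 0.975%). Between the mature and senile stages no member passed, nor did any other feature (0%). At an unadjusted p under 0.05, edgeR had 5, 5 and 1 of the 36 members in these comparisons, beside 11.2%, 12.3% and 9.57% of all features. DESeq2 called 0 members between mature and senile TS, and 0.685% of the features. The median log2 fold change of the tested members was −0.07, −0.11 and 0.06, and that of all features −0.02, −0.03 and 0.03. In sums over a whole retina, fewer cells of a type and less RNA per cell cannot be told apart.

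DNAJC3 (P58IPK), a J protein of HSPA5 that also restrains the kinase PERK during ER stress, was the most regular of these. In infants of version 6.1.2 its level was 122, 139 and 135 CPM, and in those of version 7.0.1 it was 85.7 and 81.0. In mature TS it was 108 and 92.3 (6.1.2) and 49.1, 51.3 and 54.0 (7.0.1). In senile TS it was 83.1 and 72.0 (6.1.2) and 68.6, 52.2 and 56.7 (7.0.1). Every older retina lay below every infant retina of the same version. The log2 fold change was −0.60 (SE 0.12, adjusted p = 0.0191 in edgeR) in the senile and −0.57 (SE 0.12, adjusted p = 0.0366) in the mature stage. The senile call was lost without Infancy 2, Infancy 4, Senile 1 or Senile 2 (adjusted p = 0.0526 to 0.0906), and the mature call without 11 of the retinas in turn (adjusted p = 0.0516 to 0.131). With no version term the adjusted p of DNAJC3 was 0.287 in the senile and 0.427 in the mature stage. The mature call was also lost with no filter on low counts (adjusted p = 0.0736), with a replicate block in place of the version (0.101) and within version 6.1.2 (0.199) or 7.0.1 (0.581) alone. Within version 6.1.2 alone the senile value of DNAJC3 was −0.76 (adjusted p = 0.0274 in edgeR), and within version 7.0.1 it was −0.46 (adjusted p = 0.721).

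DNAJB11, which delivers unfolded proteins to HSPA5, stood at 62.7, 62.4 and 68.0 CPM in infants of version 6.1.2 and at 33.0 and 26.4 in those of version 7.0.1. Senile TS had 33.9 and 38.7 (6.1.2) and 25.1, 24.1 and 24.9 (7.0.1), and mature TS 38.3, 39.5, 26.4, 24.9 and 27.2. The infant retinas of version 6.1.2 were thus high, and those of 7.0.1 overlapped with mature but not with senile retinas of that version. In edgeR the log2 fold change of DNAJB11 from infancy to the senile stage was −0.57 (SE 0.13, adjusted p = 0.0340 in edgeR), −0.82 (adjusted p = 0.0176) within version 6.1.2 and −0.23 (adjusted p = 0.824) within version 7.0.1. The mature value was −0.48 (adjusted p = 0.120). The senile call of DNAJB11 was lost without any of 10 retinas in turn (adjusted p = 0.0526 to 0.121). It was also lost with no filter on low counts (adjusted p = 0.0948), with no version term (0.336) and with a replicate block in place of the version (0.106).

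HSPA5 and HSP90B1 did not pass the test over all retinas. HSPA5 stood at 191, 199.5 and 213 CPM in infants of version 6.1.2 and at 49.5 and 31.8 in those of version 7.0.1. Older retinas had 84.5 to 106.5 in version 6.1.2 and 30.6 to 64.6 in version 7.0.1. HSP90B1 stood at 267, 317 and 319 in infants of version 6.1.2 and at 73.3 and 58.9 in those of 7.0.1, and at 133 to 173 and 40.6 to 118 in older retinas of these versions. Infants of version 6.1.2 were therefore above all other retinas for both genes, while infants of version 7.0.1 lay among the older retinas. The log2 fold change over all retinas was −0.51 (SE 0.27, adjusted p = 0.512 in edgeR) for HSPA5 and −0.54 (SE 0.28, adjusted p = 0.509) for HSP90B1 in the senile stage. Within version 6.1.2 it was −1.06 (adjusted p = 0.00839) for HSPA5 and −1.12 (adjusted p = 0.00293) for HSP90B1, and within version 7.0.1 it was 0.24 (adjusted p = 0.899) and 0.06 (adjusted p = 0.982). A difference between the versions in the stage change was not tested. The within-version values for 6.1.2 rest on Infancy 1 to 3, the libraries that were more alike than other pairs of a stage, and the part of that likeness was not tested.

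**Figure D3:**
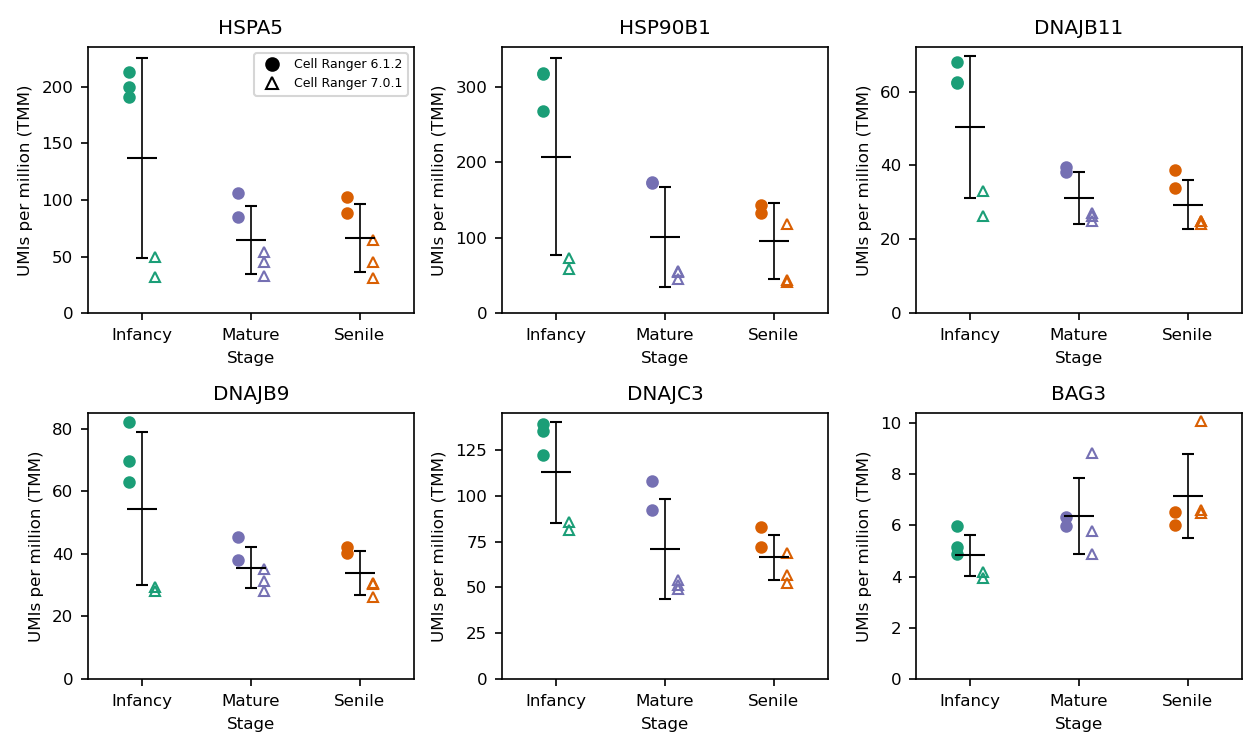
Whole-retina levels of 6 members by stage (CPM, TMM-scaled; linear axes from 0). Filled circles are retinas of Cell Ranger 6.1.2, open triangles those of 7.0.1, and bars are the mean ± SD of 5 retinas. HSPA5 spans 191 to 213 in infants of version 6.1.2 and 31.8 to 49.5 in infants of version 7.0.1.

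Counted over the 7 tested members of the ER role, 6 (HSP90B1, HSPA5, HSPA13, DNAJB9, DNAJB11 and DNAJC3) were lower in every older than in every infant retina of version 6.1.2. In version 7.0.1 this held for DNAJC3 alone. Over the 36 members tested the counts were 7 and 2, and over all features the shares were 8.72% and 5.8%. The 6 ER genes were high in the same libraries, Infancy 1 to 3, so they are not separate observations to set against these shares. The retinas of the 2 versions also stood apart: 5 of the 7 ER members were lower in every retina of version 7.0.1 than in every retina of version 6.1.2, as were 6 of 36 members and 2.37% of all features. HSPB1 was the 1 member that was higher in every retina of version 7.0.1 (2.51% of all features). DNAJC1, like DNAJB9 an ER member with its highest mean in Müller cells, ranged from 189 to 289.5 CPM over all retinas. Senile and infant TS differed in DNAJC1 by 0.00 (SE 0.11) on the log2 scale. Whether intronic reads were counted is not given in the sources used here, and its part in the version gap was not tested.

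Members of the other roles did not pass in the whole retina. BAG3 was the one member with every senile retina above every infant retina, as were 1.67% of all features: infants stood at 4.89, 5.15, 5.99, 4.18 and 3.96 CPM and senile TS at 6.03, 6.52, 10.1, 6.61 and 6.505. In edgeR the log2 fold change of BAG3 was 0.57 (SE 0.21, adjusted p = 0.317 in edgeR), and its mature level ranged from 4.87 to 8.82. HSP90AA1 averaged 245 ± 78.9 CPM (SD, n = 5) in infants, 190.5 ± 33.0 in mature and 188 ± 71.9 in senile TS. The mitochondrial members differed from −0.03 to 0.59 between infant and senile TS, with HSPE1 at 1.01 (SE 0.38, adjusted p = 0.447 in edgeR) between mature and senile TS. The cytosolic J proteins ran from −0.26 (DNAJA1) to 0.24 (DNAJB6) between infant and senile TS, the TRiC subunits from −0.27 to −0.10, and the heat shock factors from −0.30 (HSF1) to 0.05 (HSF2).

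The members also differed in how much retinas varied after additive effects of stage and version were taken out. A stage change that differs between the versions also counts into this spread. The SD of the log2 level left after these effects was 0.77 for HSPB1, 0.67 for HSPE1, 0.56 for HSPH1 and 0.56 for DNAJB6. It was 0.13 for DNAJC6, 0.15 for DNAJA2 and 0.16 for DNAJC1. HSPB1 was at 1.23 to 7.90 CPM in 14 retinas and at 29.4 in Mature 4. HSPH1 was at 212 in Senile 1 and at 36.1 to 142 elsewhere, and 2 senile retinas (38.1 and 36.1) were its lowest. None of these 4 variable members passed in a stage comparison.

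**Figure D4:**
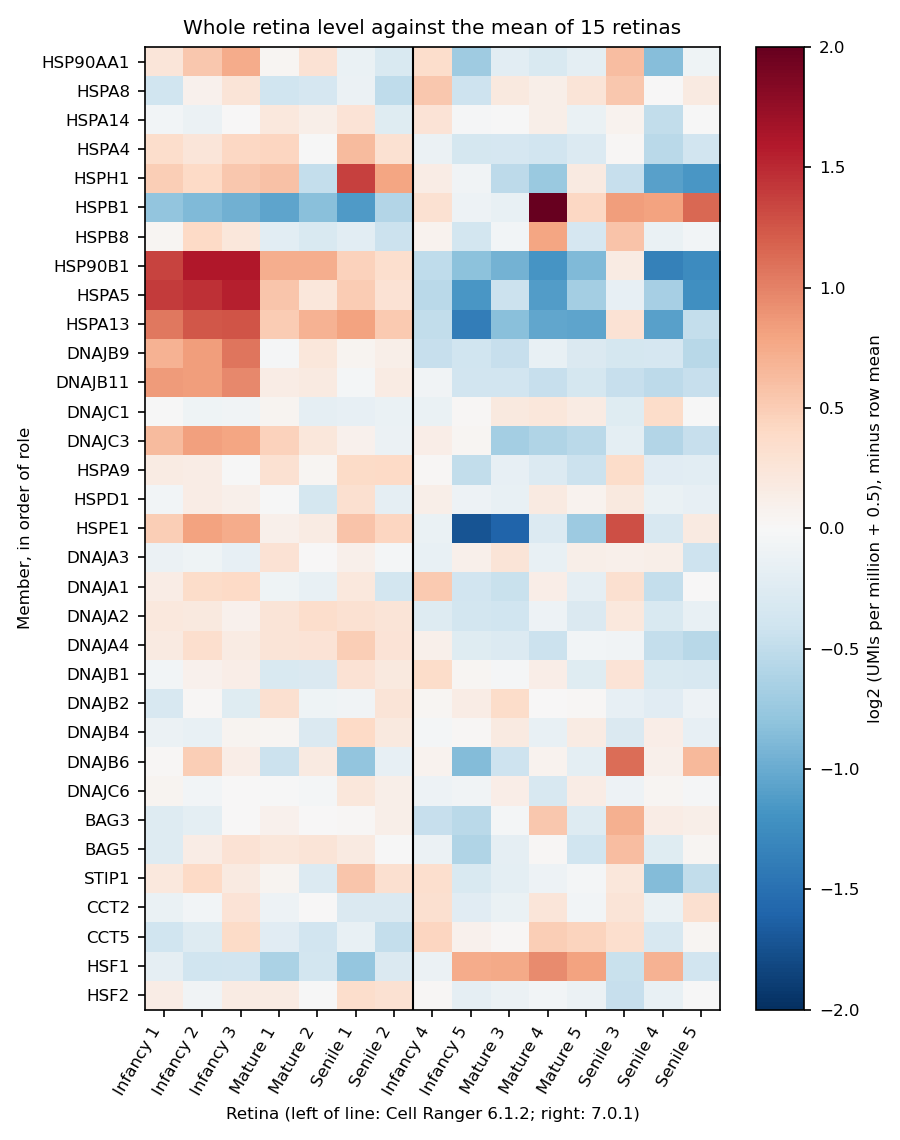
Whole-retina level of 33 members as log2 (CPM + 0.5) minus the mean of the 15 retinas (colour), with the 7 retinas of Cell Ranger 6.1.2 left of the line and the 8 of 7.0.1 right of it, in order of stage. HSPA5, HSP90B1, HSPA13, DNAJB9, DNAJB11 and DNAJC3 are highest in Infancy 1 to 3, HSPB1 in Mature 4, and HSF1 is high in Infancy 5, Mature 3 to 5 and Senile 4.

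Immediate early genes, which rise with handling of tissue, did not pass in the whole retina. NR4A1 came closest (−1.88, adjusted p = 0.0712 in edgeR, senile against infant), with 16.0 CPM in Infancy 2 and 0.512 to 3.65 elsewhere, and FOS was also highest in Infancy 2 (16.0). Of the other chaperone and stress genes 54 were tested in the whole retina and none passed in any comparison, with 3, 4 and 7 at an unadjusted p under 0.05, beside the same 11.2%, 12.3% and 9.57% of all features. CRYAA, a small HSP best known from the lens, was present in single retinas: it stood at 2001 CPM in Infancy 4, 468 in Infancy 5 and 1314 in Mature 4, and at 0.0440 to 15.4 in the others. Its mean level was similar in all classes (181 to 312). Its part in the stage differences of the members was not tested.

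The third question was in which classes the members changed. Within the classes 239 member-by-class pairs were tested. From infancy to the senile stage 3 of the 239 passed, a share close to the 1.02% of all feature-by-class tests. In the other comparisons 0 passed, against 0.698% for mature and infant and 0.00968% for senile and mature TS. At an unadjusted p under 0.05, edgeR had 37, 32 and 14 of the 239 pairs, beside 8.4%, 10.1% and 8.47% of all feature-by-class tests. DESeq2 called 8, 4 and 0 pairs, beside 1.68%, 1.48% and 0.334% of all its tests. Of the other chaperone genes 341 pairs were tested and 2 passed, CRYAA in cones and RGCs, whose values rest on the single retinas named above.

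DNAJB11 was called lower in senile than in infant BCs and ACs. In BCs it stood at 97.7, 86.8 and 93.2 CPM in infants of version 6.1.2 and at 40.0 and 36.4 in those of version 7.0.1. Senile BCs had 40.2 and 40.8 (6.1.2) and 23.7, 29.1 and 30.2 (7.0.1), so every senile retina was below every infant retina of its version. This order comes from the values behind the call, and the share of all features with such an order in a class was not computed. The log2 fold change of DNAJB11 was −0.81 (SE 0.16, adjusted p = 0.0132 in edgeR) in BCs. In ACs infants had 77.2, 73.1, 81.1, 39.2 and 32.8 and senile TS 37.8, 49.1, 29.6, 19.7 and 25.8, again without overlap within a version, at −0.69 (SE 0.14, adjusted p = 0.0227 in edgeR). RGCs gave −0.71 (SE 0.19, adjusted p = 0.136). Within version 7.0.1 alone the BC value of DNAJB11 was −0.41 (adjusted p = 0.758). Without Senile 1 the adjusted p was 0.0750 in BCs and 0.0976 in ACs, and in ACs it was also 0.0558 to 0.0677 without Infancy 1, 2, 3 or 4 or Senile 4. The AC call was lost as well within version 6.1.2 (−0.81, adjusted p = 0.0807) and 7.0.1 (−0.51, adjusted p = 0.715) alone and under the stricter gate of 3 markers (adjusted p = 0.107). With no version term the adjusted p of DNAJB11 was 0.432 in ACs and 0.131 in BCs, and with a lead of 1 in the gate it was 0.147 and 0.111.

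DNAJC6 was called higher in senile than in infant cones. Infant cones held 234, 186, 178, 198 and 165 CPM, mature cones 254, 229, 292, 191 and 227, and senile cones 365, 294, 269, 250 and 247. Every senile retina was above every infant retina, in both versions, and mature retinas overlapped with both stages. The share of all features in cones with such an order was not computed. The stage means of DNAJC6 were 192 ± 26.1 (SD, n = 5), 239 ± 37.4 and 285 ± 48.2. In edgeR the log2 fold change from infancy to the senile stage was 0.59 (SE 0.12, adjusted p = 0.0114 in edgeR). Without Infancy 5 the adjusted p was 0.0508. The value of DNAJC6 did not pass within either version alone, at 0.68 (adjusted p = 0.0803) in 6.1.2 and 0.54 (adjusted p = 0.410) in 7.0.1. In BCs, the class with the highest DNAJC6, the 15 retinas lay between 315 and 412.

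**Figure D5:**
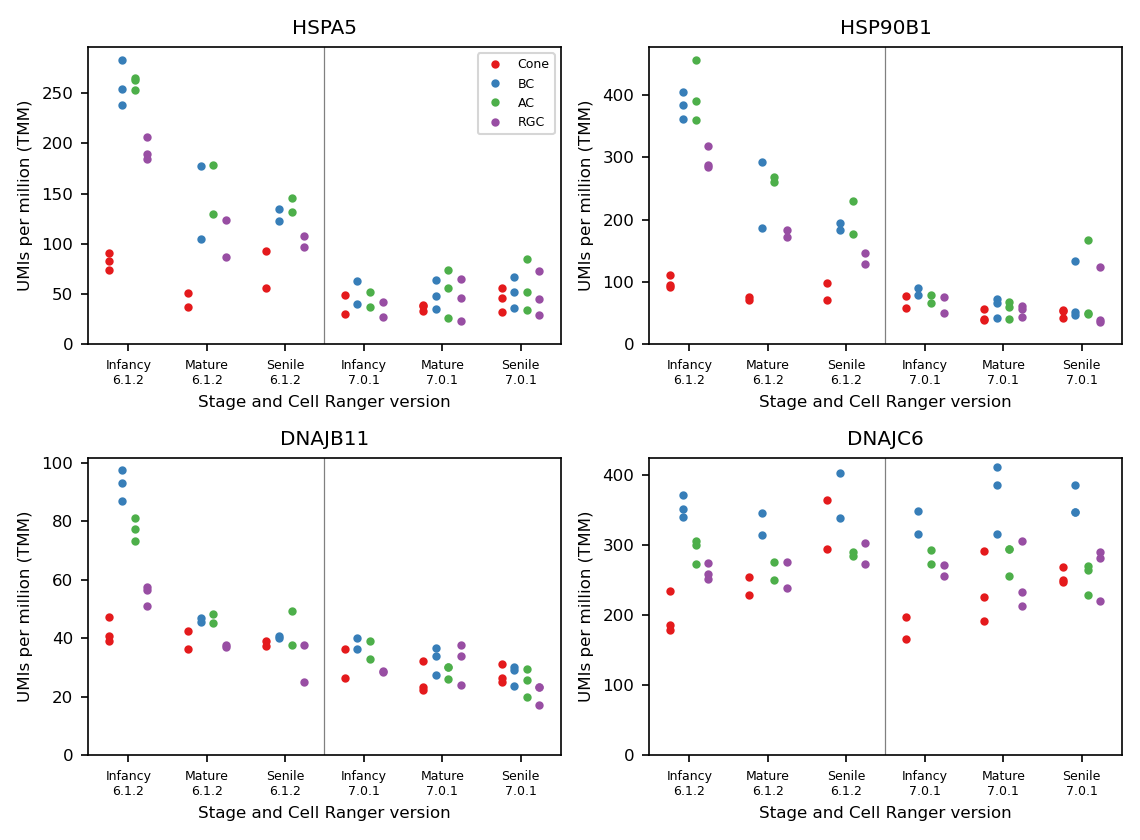
Levels of HSPA5, HSP90B1, DNAJB11 and DNAJC6 in cones, BCs, ACs and RGCs (CPM of the class sum, TMM-scaled; linear axes from 0), by stage, with retinas of Cell Ranger 6.1.2 left of the line and of 7.0.1 right of it. Each point is a retina. DNAJC6 in cones is at 165 to 234 in infants and at 247 to 365 in senile TS, and the ER members of infant BCs, ACs and RGCs are high in version 6.1.2.

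Whether cones changed differently from other neurons and Müller cells was tested directly, as the change of a class minus the mean change of the other 4 among cones, BCs, ACs, RGCs and Müller cells. The retina was a block in this test. There was no term for a version effect that differs between classes. The test was not run within a version or with a retina left out. For DNAJB11 the ratio of cones to BCs was 0.398 to 0.507 in infants of version 6.1.2 and 0.724 to 0.903 in those of 7.0.1. In older retinas it was 0.797 to 0.969 and 0.633 to 1.18. In cones 3 members passed (background 1.01% for cones and 0.296% for all 5 classes), and in the other 4 classes none. The change of DNAJC6 was higher in cones by 0.59 (SE 0.12, adjusted p = 0.00204 in edgeR). That of DNAJB11 was higher in cones by 0.56 (SE 0.15, adjusted p = 0.0366): its level in cones was 38.9, 40.8, 47.3, 36.2 and 26.3 CPM in infants and 38.9, 37.4, 25.1, 26.5 and 31.3 in senile TS, which overlap. DNAJB4, a cytosolic J protein, differed by 0.38 (SE 0.10, adjusted p = 0.0459), with 100.1 to 125 in infant and 112 to 169 in senile cones. Without a filter on low counts, DNAJB11 (adjusted p = 0.229) and DNAJB4 (adjusted p = 0.584) did not pass, and with the stricter gate of 3 markers DNAJB4 did not pass either (adjusted p = 0.114).

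The ER members of cones and BCs can be compared within a retina. The ratio of cones to BCs for HSPA5 was 0.29 to 0.38 in the 3 infants of version 6.1.2, 0.286 to 0.75 in the 4 older retinas of that version, 0.743 and 0.773 in the 2 infants of version 7.0.1 and 0.595 to 1.14 in the 6 older ones. For HSP90B1 it was 0.234 to 0.288, 0.261 to 0.538, 0.722 and 0.851, and 0.41 to 1.05 in the same order. Cones of version 6.1.2 thus held less of both genes than BCs in each of its retinas, and the median ratios were nearer to 1 in version 7.0.1 (0.758 in infants and 0.780 in older retinas for HSPA5, against 0.291 and 0.383 in 6.1.2). The ranges of the older retinas of the 2 versions overlapped for both genes. In infants of version 7.0.1 cones were not below BCs for HSPA13 (1.01) or DNAJC3 (1.07 to 1.17). They were below for DNAJB9 (0.711 to 0.825) and DNAJB11 (0.724 to 0.903). In older retinas of that version the medians were 1.09, 0.998, 0.83 and 0.97 in the same order. For each of these genes cones were below BCs in every retina of version 6.1.2. HSPA9, in contrast, was higher in cones than in BCs in every retina, with ratios from 1.62 to 3.75.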

How the data were processed

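Single-nucleus RNA was measured in 15 TS retinas, 5 per stage. Raw UMI counts were deposited by the authors as 1 matrix per retina, made with Cell Ranger on the TS_3.0 genome per the methods. The file headers name versions 6.1.2 and 7.0.1, whereas the submitters' processing notes give 5.0.1 for the retinas of 6.1.2. The methods name a single version. The header was used. Nuclei with over 200 and under 6000 genes and under 5% mitochondrial UMIs were kept. A class needed UMIs of at least 2 of its markers and a lead of 0.5 over the next class, and class sums of under 20 nuclei were left out. No doublet caller was run, and nuclei with markers of several classes were set aside. The members and gene lists were chosen with earlier results of these data known. Where a symbol had numbered copies, the copy with the most UMIs was used, also where the plain symbol was present with fewer.

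Sums were compared by edgeR 4.0.16 (limma 3.58.1, R 4.3.3) with TMM scaling, its filter on low counts and quasi-likelihood tests, with the Cell Ranger version as a covariate by stage and the retina as a block by class. In the test of changes between classes the retina was the block, with no term for a version effect that differs by class. p-values were adjusted by Benjamini-Hochberg over all features tested. SE is the log2 fold change divided by the square root of F. The study describes 15 donor animals, and the labels give 5 retinas per stage. Described in full were members past an adjusted p of 0.05, by class at most 3 higher and 2 lower. HSPD1 in Müller cells, the uncalled ER members, HSF1 and other members beyond that rule were named after their values were seen. Alternatives were DESeq2 1.42.0, no filter, other gates, no version term, 1 version alone, a replicate block and leaving out each retina. The UMIs of all numbered copies were also summed, for the stage comparisons in the whole retina only. Not every alternative was run for every comparison. The scripts were run on simulated counts with known fold changes, and the outcome is not given here. These counts held no effect of version or retina, so they cannot show how the fits handle such effects. Some genes are not reported here.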

Additional observations from a re-analysis of the deposited data

Results flagged for a closer look

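Of 114 groups of 5 retinas examined, of which chance gives about 1 in 20, a retina stood apart from the others of its stage in 7. BAG3 was 10.1 CPM in Senile 3, next to 6.61, and DNAJB2 was 10.0 in Senile 2, next to 7.84. HSF1 was 84.4 in Infancy 5, next to 46.2, and 81.9 in Senile 4, next to 41.2. HSPA14 was 38.5 in Infancy 4, next to 32.0. Both small HSPs were highest in Mature 4, with HSPB1 at 29.4, next to 4.56, and HSPB8 at 32.2, next to 17.7.

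The change from infancy to the senile stage differed between cones and the mean of BCs, ACs, RGCs and Müller cells for 3 members, by edgeR's test of the difference itself. It was higher in cones by 0.59 on the log2 scale for DNAJC6, by 0.56 for DNAJB11 and by 0.38 for DNAJB4. The DNAJB4 difference did not pass in either alternative run, and that of DNAJB11 did not pass with no filter. No term of this test held a version effect that differs by class.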

How the results depend on the processing

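Class and stage results faced different alternatives, so which were steadier cannot be told. The class test was not rerun with DESeq2, within a single version or with another block. When a retina was left out, it kept the filter on low counts and the estimate of spread from all retinas. Of 149 calls by class, 128 to 146 were made again in the same direction under the other gates, filters and minimum nuclei and 140 to 149 when a retina was left out. The totals, with other calls counted in, were 140 to 159 and 146 to 156. Of 898 values of 43 named class differences, 873 kept direction and call, 24 lost the call and 1 reversed, HSPB1 in RGCs at 0.15 with nuclei of several classes kept. The 4 differences concerned were DNAJA4 in rods, HSPB1 in HCs and RGCs and HSPA8 in microglia. Of 147 values of 9 named stage results and differences, 90 kept the call, 57 lost it and 0 reversed. In the whole retina the 2 calls from infancy to the senile stage became 1 with no filter, 0 with no version term, 5 in version 6.1.2 alone, 0 in 7.0.1 alone and 1 with the replicate block, and 0 to 3 when a retina was left out. The 1 mature call became 2 with DESeq2, 3 in version 6.1.2 alone, and 0 with no filter, no version term, 7.0.1 alone or the replicate block (0 to 2 when a retina was left out). Within classes the 3 senile calls became 8 with DESeq2, 10 with no filter, 1 with no version term, 13 in version 6.1.2 alone and 0 in 7.0.1 alone (1 to 9 when a retina was left out, with 1 without Senile 1 and 9 without Senile 3). The 0 mature calls became 4 with DESeq2, 2 with no filter, 5 in version 6.1.2 alone, and 1 with a lead of 0.25, a lead of 1 or nuclei of several classes kept (0 to 3 when a retina was left out). Between mature and senile TS 0 calls became 3 within classes with no filter and stayed 0 in each other alternative (0 to 0 when a retina was left out). The 3 differences of the change became 1 with no filter. The causes were not tested. With DESeq2 within classes, 1.68% of all tests passed for senile against infant and 1.48% for mature against infant TS. The share over all features was not computed for the other alternatives that changed a stage count. Those counts of members therefore cannot be set against a background. Samples with the same number had a median correlation of 0.35 (−0.46 to 0.51) in their deviations, against 0.39 for other pairs of the same version, so the numbers were not taken as pairs. The replicate block gave 4 calls within classes from infancy to the senile stage. Sparse classes limit the depth: rods and microglia gave 14 sums each.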

Other observations

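HSF1 stood at 81.9 to 97.5 CPM in Infancy 5, Mature 3 to 5 and Senile 4, all of Cell Ranger 7.0.1, and at 29.1 to 46.2 in the other 10 retinas, which was seen only after its values were known. FKBP5 was 63.1 CPM in Mature 4 and 2.77 to 15.9 elsewhere.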
